A study of Mus musculus with 232 samples.

Results

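The cells described here are mouse embryonic stem cells (ESCs) that lacked Dgcr8 and had been given back a single miRNA, miR-294, set against wild-type (WT) ESCs that make their own miRNAs. They were chosen by name, as the 55 cells (73 sequencing runs) whose names start with miRNA294, out of 232 runs in the series. Another 3 cells labelled with the same treatment carried another name and entered an alternative only. A pair of the 55 agreed as closely as repeat sequencing runs of one library do (Pearson's r up to 0.9903, where the next closest pair of cells reached 0.8615), and it was counted once, which left 54 cells. The WT group held 16 cells of the parental V6.5 line. The comparison also used 60 mock-transfected Dgcr8-/- cells and 48 Dgcr8-/- cells given a let-7 mimic, which counted as 45 after 3 such pairs were merged. All cells were grown with serum, LIF and 2i (inhibitors of GSK3 and MEK), and were captured 24 h after transfection on 1 Fluidigm C1 chip for each condition. Transfected cells without a loss of the targets of their miRNA had been removed before deposit, so low target levels in the remaining cells are in part a choice of cells.

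A miRNA silences mRNAs that carry a match to its seed, bases 2 to 8, most often in the 3′ UTR. DGCR8 and the RNase DROSHA cut the hairpins of nearly all miRNAs out of their primary transcripts, so that Dgcr8-/- ESCs are almost without miRNAs. In WT ESCs, the commonest miRNAs belong to the ESCC family (ESC-enriched, cell cycle regulating), to which miR-294 belongs and which is known for shortening G1. Setting the cells with this miRNA alone beside WT cells asks which genes a single seed brings to the WT level and which still differ.

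The sequences below, taken from RefSeq (GRCm38.p6), show the seed in capitals. The first 3 come from neighbouring hairpins on chromosome 7 and share a seed exactly. That of miR-17 is shifted by 1 base, and let-7c stands for the let-7 family, which has another seed. The sources name the let-7 mimic differently (let-7i in the sample names, let-7c in the methods), and the let-7 members share the seed shown.
miR-294-3p: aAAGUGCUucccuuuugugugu
miR-291a-3p: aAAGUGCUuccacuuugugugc
miR-295-3p: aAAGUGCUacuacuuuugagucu
miR-17-5p: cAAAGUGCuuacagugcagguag
let-7c-5p: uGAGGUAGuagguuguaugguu
The match to the miR-294 seed in an mRNA reads AGCACTT, and the sites below, from Gencode M21 transcripts (GRCm38), show it in capitals for 3 genes whose levels are given in every group further on. Each lies in the 3′ UTR of a protein-coding gene.
Twf1, chr15:94579687-94579709, minus strand: tgaaaaatAGCACTTttcacttc
Dazap2, chr15:100619534-100619556, plus strand: ataccttcAGCACTTctcacaat
Cdkn1a, chr17:29099820-29099842, plus strand, the first of 2 matches: acctgaatAGCACTTtggaaaaa

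Values are levels per cell or per group, in CPM (expected counts as a share of the total), scaled so that the WT group keeps its own total. Depth was similar, with between 984128 and 3757562 counts in a miR-294-transfected cell (median 1435139) and between 513521 and 3260922 in a WT cell (median 1307481). The labels name no separate cultures, so each condition is 1 sample of many cells. No test of a difference between conditions was therefore possible, and chip, cell line and mimic cannot be told apart. The ranges over cells describe spread within a sample, and the intervals given are exact 95% intervals that cover counting error only. A gene was called higher or lower when the summed level of a group was at least 2-fold above or below that of WT, both with all cells and without the highest cell of the higher group. One WT cell had 2 runs that disagreed (r = 0.6257, against at least 0.9855 for the run pairs of miR-294-transfected cells). Both runs were summed, and values without the cell are given where they differ by over 1.5 times. The same held for 1 let-7-transfected cell (r = 0.6811), which was kept.

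On the pluripotency list, the labelled cell type matched its markers. The 21 genes of a pluripotency list all passed the filter, with a summed level of 8724 in miR-294-transfected cells and 8060 in WT cells. Fibroblast markers, which could come from other cells of a culture, were near 0: the summed share of the 10 genes had a median of 0 CPM, unscaled, in both groups, and Col1a2, Col3a1, Lum and Postn had no count in any cell. Some count of the list was found in 11 of 54 miR-294-transfected cells and 3 of 16 WT cells, at up to 24.8 and 3.0 CPM. Of 15 early differentiation genes, 5 passed the filter on counts. Sox17 and Gata6 had no counts at all, and the summed share of the list had a median of 18.9 CPM, unscaled, over miR-294-transfected cells and 59.3 over WT cells. Nes, Otx2 and Gata4 had no count in WT cells. They were counted in 12, 5 and 4 miR-294-transfected cells and called higher there, while Eomes was called lower.

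Dgcr8, on chr16:18253948-18289246, encodes the protein missing from the mutant line, and it was counted in 52 of 54 miR-294-transfected cells and in all 16 WT cells. The group level was 117.5 in WT cells, 41.1 in miR-294-transfected cells and 31.7 in mock cells. Over cells the level ran from 1.94 to 462.8 (median 43.3) in WT and from 0 to 220.6 (median 18.5) after miR-294, and 51 of 54 miR-294-transfected cells lay within the WT range. The counts cover the whole gene, so they cannot show whether the deleted part is missing. With the first run of each cell alone the log2 difference from WT was -0.89 instead of -1.52. Dgcr8 was not called lower after miR-294, because the difference fell under 2-fold without the highest WT cell.

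Of the genes chosen to mark these cells, Twf1 and Dazap2 are targets of miR-294, and Lin28a encodes an RNA-binding protein that blocks let-7 maturation. Twf1 (chr15:94577951-94589889), which encodes the actin regulator twinfilin, was counted in every cell. Its level over the 16 WT cells ran from 264 to 902.8 (median 509), over miR-294-transfected cells from 15.2 to 1152 (median 499.9), and over mock cells from 510 to 2812 (median 1445). The miR-294-transfected cells sat on top of the WT cells, with 26 above the WT median and 28 below it, whereas 49 of 60 mock cells were above the highest WT cell. The group levels were 584.6 in WT, 509.2 after miR-294, 1421 in mock and 1118 after let-7, and the log2 difference of miR-294-transfected from WT cells was -0.20 (counting interval -0.23 to -0.17).

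Dazap2 (chr15:100615349-100620761), which encodes a proline-rich adaptor protein, went past the WT level. It ran from 0 to 287.1 (median 106) in WT cells, from 0 to 312.3 (median 47) after miR-294 and from 6.79 to 949 (median 516) in mock cells. The ranges of the first 2 groups coincided almost entirely, yet 40 of 54 miR-294-transfected cells lay below the WT median. The log2 difference of the group levels was -0.83 (counting interval -0.89 to -0.77) after miR-294 and 2.02 in mock cells.

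Cdkn1a (chr17:29090976-29100727) encodes p21, an inhibitor of the kinases that drive cells from G1 into S, and it stood at the WT level. The group level was 44.2 in WT, 40.2 after miR-294, 185 in mock and 200.2 after let-7. Over cells it ran from 0 to 138.5 (median 29) in WT, from 0 to 234.1 (median 22.8) after miR-294 and from 0 to 1084 (median 130) in mock. Of the miR-294-transfected cells, 52 of 54 lay within the WT range, against 34 of 60 mock cells.

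Lin28a (chr4:134003330-134018841) still differed. It was counted in 15 of 16 WT cells, in 25 of 54 miR-294-transfected cells, in 3 of 60 mock cells and in 1 of 45 let-7-transfected cells. With every cell thinned to 500000 counts, the shares were 93.8% in WT (exact binomial interval 69.8 to 99.8), 44.4% after miR-294 (30.9 to 58.6) and 3.33% in mock (0.41 to 11.5). The level ran from 0 to 385.2 (median 218) over WT cells and from 0 to 179.3 (median 0) over miR-294-transfected cells, none of which reached the WT median. The group level was 214.6 in WT, 26.5 after miR-294 and 0.98 in mock cells, so that the value after miR-294 lay between the other two on a log2 scale, at -3.02 from WT (counting interval -3.09 to -2.95).

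**Figure D1:**
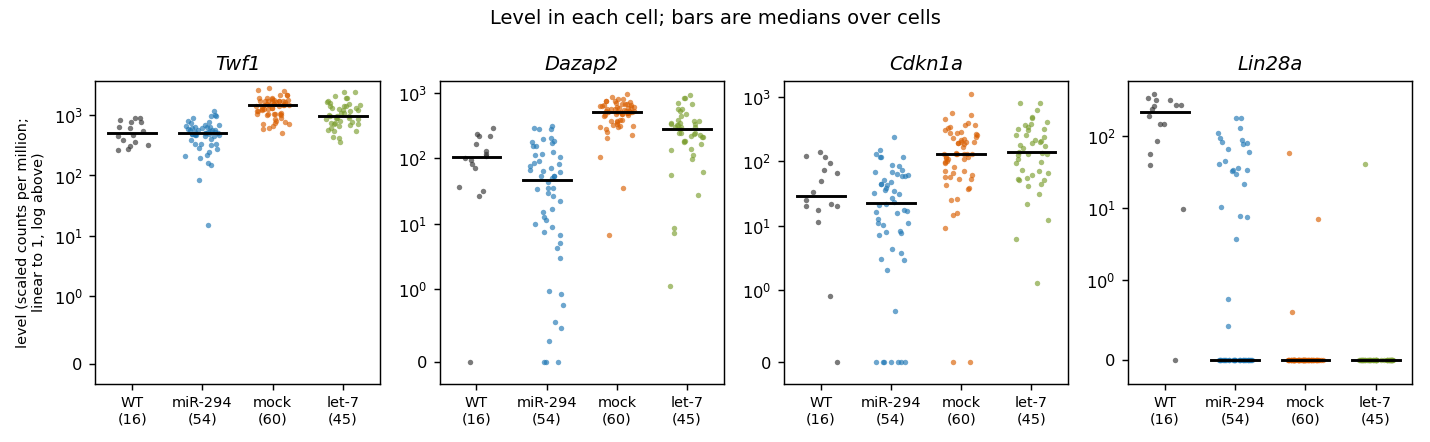
Level of Twf1, Dazap2, Cdkn1a and Lin28a in each cell of the 4 groups (number of cells in parentheses), in scaled CPM on an axis that is linear up to 1 and logarithmic above; bars are medians over cells. For Twf1, Dazap2 and Cdkn1a the miR-294-transfected cells overlap the WT cells and lie below most mock cells, while for Lin28a 29 of 54 miR-294-transfected cells are at 0.

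Over all genes, most of those called in mock against WT cells were still at least 2-fold from WT after miR-294 with all cells. Of 11186 genes tested, 2321 were called higher (20.7%) and 728 lower (6.51%) in mock than in WT cells. For the 2321 higher genes, the level after miR-294 was within 1.5-fold of WT for 200, between 1.5-fold and 2-fold above it for 243, and at least 2-fold above it for 1812. A further 66 lay past the WT level, to more than 1.5-fold below it. For the 728 lower genes, 136 stood at the WT level, 173 between, 410 still at least 2-fold below WT and 9 past it. These positions rest on the group levels with all cells, a looser rule than the call. By the full call, which also leaves out the highest cell, 1539 of the 2321 and 269 of the 728 genes differed in the same direction after miR-294. The same WT cells enter every such comparison, so an unusual value in WT puts a gene in the group of those that still differ, and the counts are a description. The let-7-transfected cells, measured against the same WT cells, had 126 of the 2321 and 89 of the 728 genes at the WT level.

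Many of these genes were sparse, counted in few cells. Among the 7245 genes that were counted in at least 50% of cells (averaged over the 4 groups), the calls of mock against WT cells were 899 higher (12.4%) and 463 lower (6.39%). Of the 899, 125 stood at the WT level after miR-294, 161 between, 605 were still higher and 8 were past WT, and of the 463 the numbers were 104, 146, 212 and 1. After let-7, 70 of the 899 and 40 of the 463 stood at the WT level. In the lower set, the median log2 difference from WT was -1.53 in mock, -0.95 after miR-294 and -1.48 after let-7, and in the higher set it was 1.80, 1.44 and 1.97.

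**Figure D2:**
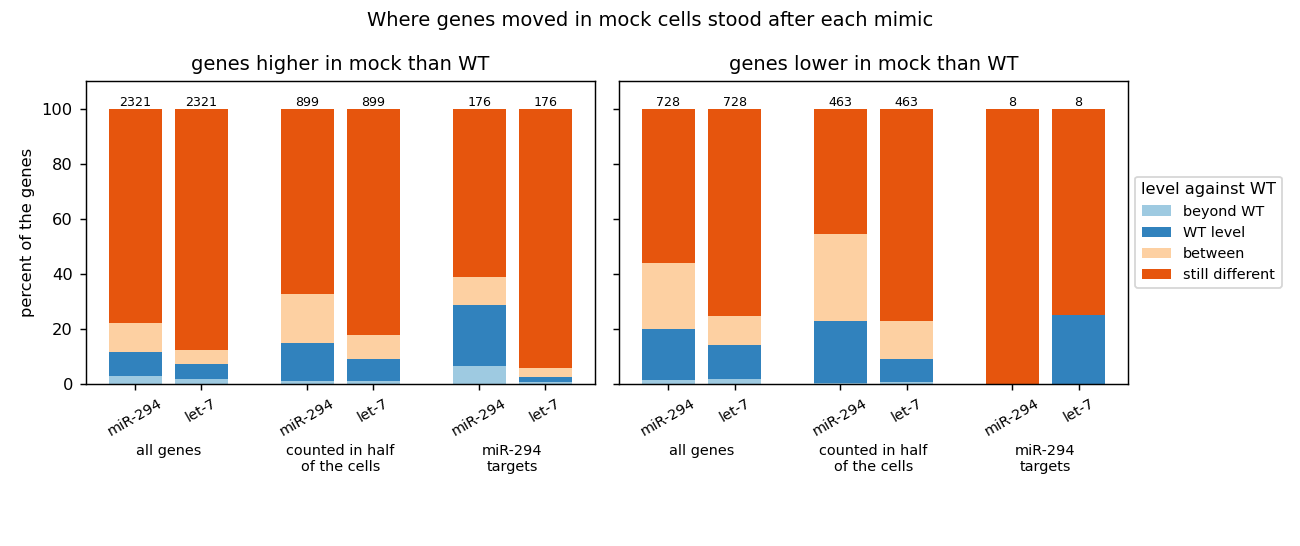
Percent of the genes called higher (left) or lower (right) in mock than in WT cells whose level after miR-294 or let-7 was past WT, within 1.5-fold of it, between, or still at least 2-fold from it, for all genes, genes counted in at least 50% of cells, and miR-294 targets; the number of genes stands above each bar. Of 176 targets higher in mock cells, 39 were at the WT level after miR-294 and 3 after let-7.

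Listed targets of miR-294 were found at the WT level more often than other genes. Of 495 targets defined by earlier array experiments, 492 were tested, and 176 were called higher in mock than in WT cells. After miR-294, 39 of the 176 were at the WT level, 18 between, 108 still higher and 11 past WT, whereas after let-7 the numbers were 3, 6, 166 and 1. Among genes listed as targets of neither miRNA, 160 of 2126 (7.53%) were at the WT level after miR-294, compared with 22.2% of the targets. For genes counted in at least 50% of cells, 33 of 91 targets (36.3%) and 91 of 796 other genes (11.4%) were. The study kept miR-294-transfected cells by the loss of these targets, so their level is not independent of the choice of cells.

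As a whole, the targets lay below WT, with a summed level of 17580 after miR-294 against 24141 in WT cells. The median over miR-294-transfected cells of their summed share was below the lowest WT cell. Their summed share of a cell's counts, unscaled, ran from 12960 to 23580 CPM (median 18610) in miR-294-transfected cells, from 18740 to 32280 (median 24070) in WT cells and from 22110 to 45560 (median 33230) in mock cells. The median log2 difference from WT over the 492 targets was -0.15 after miR-294, 0.56 in mock and 0.78 after let-7, where the medians over all genes tested were 0.01, 0.02 and 0.04. In direct calls against WT, 96 targets were higher (19.5%) and 47 lower (9.55%) after miR-294, beside 17.7% and 5.03% of the genes listed for neither miRNA. Restricted to genes counted in at least 50% of cells, 36 of 333 targets were higher and 36 lower (10.8% each). Of the genes listed for neither miRNA, 10.4% were higher and 3.89% lower in this set.

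Examples of targets at the WT level come from several compartments of the cell. Lamp2, a membrane protein of the lysosome, had a level of 91.3 in WT, 98.0 after miR-294 and 337.1 in mock cells. Dpysl2, a microtubule regulator of growing neurites, stood at 20.4, 22.5 and 94.1 in the same order. Adam9, a membrane protease, stood at 14.5, 20.3 and 73.2 (a log2 difference from WT of 0.49, or -0.13 with each cell weighing the same), and Pja2, a ubiquitin ligase, at 12.9, 15.0 and 57.2. Rhoc, a small GTPase that acts on actin, stood at 5.44, 5.19 and 25.5. Other genes at the WT level with a large difference in mock were Creb3, a membrane-bound transcription factor (55.03, 74.04 and 229), Trps1, a GATA-type repressor (19.7, 24.6 and 79.4), Mast2, a kinase (11.2, 8.96 and 45.9), and Prkaa2, a catalytic subunit of AMP-activated kinase (10.5, 8.25 and 39.7). Gm14305 also met the rule, but belongs to a family of near-identical copies and is uncertain. In each of the genes given by levels here the mock level was over 3 times that in WT and in miR-294-transfected cells.

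Targets lower than in WT cells included genes that mock cells did not raise. Otud4, a deubiquitinase, had a level of 417.9 in WT, 123.9 after miR-294 and 177.9 in mock cells. Ect2, which acts in cytokinesis, stood at 250.0, 87.3 and 129.5, and Cep55, a protein of the midbody, at 212.4, 65.8 and 191.4. Cpt1a, which carries long-chain fatty acids into mitochondria, stood at 170.6, 48.2 and 85.3. For each of these the mock level also lay below WT, by least for Cep55, and for Otud4 it was called lower. Targets that stayed above WT included Tcf12, a basic helix-loop-helix factor (34.7, 113.1 and 108.1), Pecam1, an adhesion molecule (28.4, 87.6 and 122.2), and Akt2, a kinase of insulin signalling (5.81, 38.7 and 45.99).

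The genes at the WT level also carried more seed matches for miR-294 in their 3′ UTRs, a feature that the calls did not use. The listed targets among them, however, had been defined by a seed match in the 3′ UTR. The longest annotated 3′ UTR was searched for the 7-base match on the transcript strand, in the 10297 tested genes that had one. The match AGCACTT was present in 18.2% of these genes. It was present in 34.6% of the 179 genes higher in mock cells and at the WT level after miR-294, in 35.7% of the 56 that went past WT, and in 18.3% of the 1669 that were still higher. UTR length differed between these sets, with medians of 1199 bases for all genes, 1634 for genes at the WT level, and 1121 for genes still higher. Per kb of 3′ UTR there were 0.135 matches over all genes, 0.246 at the WT level and 0.144 in genes still higher. The motif of miR-17, GCACTTT, which overlaps that of miR-294 by 6 bases, showed a similar difference, with 0.105, 0.189 and 0.115 matches.

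For other miRNA families, the densities in genes still higher after miR-294 lay on both sides of those over all genes. For miR-15/16 (TGCTGCT) they held 0.206 matches per kb against 0.201 over all genes, for miR-19 (TTTGCAC) 0.107 against 0.095, for miR-25/92 (GTGCAAT) 0.057 against 0.050 and for miR-130 (TTGCACT) 0.088 against 0.084. For let-7 (CTACCTC), a family of differentiated cells, the values were 0.074 and 0.072. For miR-26 (TACTTGA) the density was lower, at 0.068 against 0.080. Among genes counted in at least 50% of cells the differences were larger for miR-25/92 (0.070 against 0.051) and miR-19 (0.115 against 0.095). The genes at the WT level also held more matches for miR-26, 0.117 against 0.080 over all genes (0.139 against 0.083 in genes counted in at least 50% of cells), and for miR-130, 0.109 against 0.084. Among genes lower in mock cells, the miR-294 match was rarer where the WT level was reached. It was present in 8.80% of the 125 of them that were at the WT level after miR-294 and in 72 of the 379 still lower, with median UTRs of 881 and 1526 bases.

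**Figure D3:**
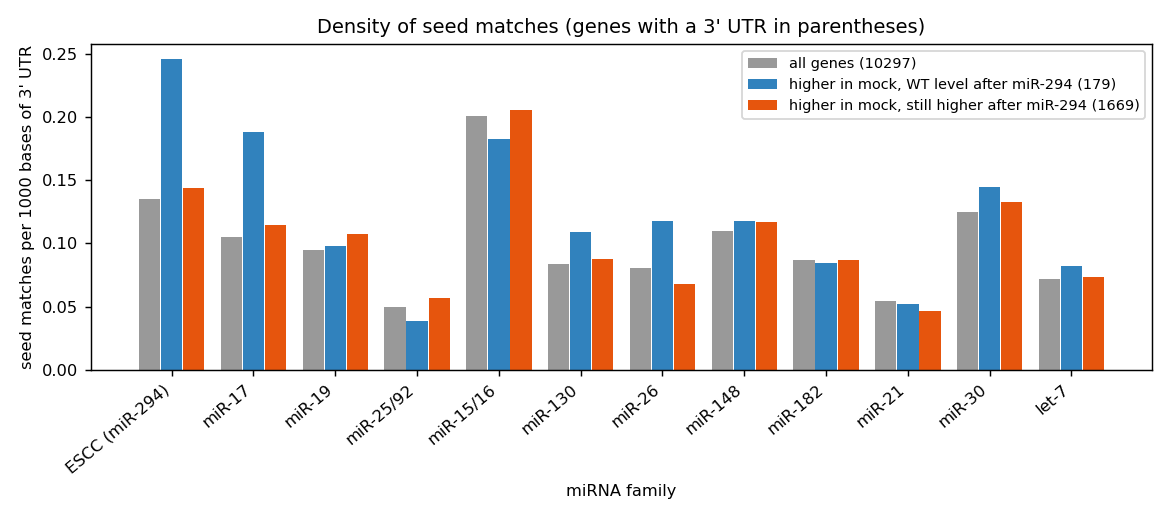
Seed matches per kb of 3′ UTR for 12 miRNA families, over all genes tested, genes higher in mock cells that stood at the WT level after miR-294, and genes still higher after miR-294, with the number of genes that have a 3′ UTR in the legend. The genes at the WT level lie above all genes for the ESCC family (0.246 against 0.135) and the overlapping miR-17 motif (0.189 against 0.105), and by less for miR-26 (0.117 against 0.080).

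The genes lower in mock cells and at the WT level after miR-294 that had the largest differences in mock had varied roles. Cenpa, the histone H3 variant of centromeres, had a group level of 57.7 in WT, 60.5 after miR-294 and 15.3 in mock cells. Over cells it ran from 0 to 261.5 (median 39.1) in WT, from 0 to 272.6 (median 50.3) after miR-294 and from 0 to 139.1 (median 1.02) in mock. Mcph1, microcephalin, which restrains entry into mitosis, stood at 58.3, 55 and 12.6. Rangrf, a binding partner of the GTPase Ran, stood at 69.01, 61.5 and 9.76, and was counted in 53 of 54 miR-294-transfected cells and 22 of 60 mock cells. Timm9, a chaperone of mitochondrial import, stood at 20.6, 17.6 and 4.23, and Yrdc, a tRNA modification enzyme, at 8.75, 12.8 and 2.25. Rimklb, an enzyme that joins glutamate to amino acids, stood at 13.8, 10.9 and 2.74. No member of this group of 6 is a listed target of miR-294, but only 492 of the 11186 tested genes are. Of the 728 genes lower in mock cells, 8 are listed targets.

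In a list of 36 cell cycle phase genes, few were called after miR-294, but the summed level lay nearer to mock than to WT. It was 8901.7 in WT, 6263.1 after miR-294 and 5230.6 in mock. In mock cells, 3 of the 36 were called higher and 8 lower than in WT, where 20.7% and 6.51% of all genes were. After miR-294, 2 were higher and 1 lower, beside 17.6% and 5.23% of all genes. With miR-294, 22 of 36 were within 1.5-fold of WT (42.03% of all genes were). Ccne1, cyclin E1, Ccna2, cyclin A2, and Top2a, a topoisomerase, were not called after miR-294 yet lay at log2 differences of -1.55, -1.03 and -1.03 with all cells. The median log2 difference was -0.54 in mock and -0.21 after miR-294. Birc5, encoding survivin of the chromosomal passenger complex, stood at 204.2 in WT, 197.0 after miR-294 and 84.7 in mock. Ccnb1, cyclin B1, stood at 941.4, 622.8 and 323.8, between WT and mock, and Cks2, a partner of cyclin-dependent kinases, at 180.4, 122.2 and 78. The gene called lower was Nasp, a chaperone of histone H1 and H3, with 1312, 583.1 and 354.4. It ran from 666 to 2323 (median 1360) over WT cells and from 106 to 1190 (median 583) over miR-294-transfected cells, all of which lay below the WT median. The 2 called higher were E2f1 and Cdc25b.

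The brakes and drivers of G1 split by gene, with 17.6% of all genes called higher after miR-294 and 20.7% in mock as the background. Of 11 tested brakes, 5 were higher in mock cells, and of these Cdkn1a was at the WT level after miR-294. Rb1, Rbl2, Lats2 and Cdkn2b were still called higher. Of these, Rb1, Rbl2 and Cdkn2b were counted in at most 1 of 16 WT cells and Lats2 in 5. Rbl2, a pocket protein and a listed target, had 2 counts in all in WT cells. Its level was 0.08 in WT, 3.85 after miR-294 and 31.8 in mock, a log2 difference of miR-294-transfected from WT cells of 5.56 (counting interval 3.69 to 8.61). Lats2, a Hippo pathway kinase and listed target with 2 seed matches, stood at 6.71, 22.9 and 35.4, at a log2 difference from WT of 1.77, or of 3.37 without the WT cell whose runs disagreed. Of 14 drivers, 4 were called higher and 0 lower after miR-294. Ccne1 (164.0 in WT, 55.9 after miR-294 and 56.1 in mock) and Myc, a growth-promoting factor (43.99, 12.6 and 5.75), lay below WT with all cells and were not called. E2f1 and E2f3, transcription factors of the G1 to S step, stood at 17.5 and 15.6 after miR-294 against 0.61 and 3.68 in WT. In mock cells they stood at 17.3 and 7.86. Mycn, a Myc family factor, stood at 83.1 after miR-294, 19.5 in WT and 50.1 in mock. Ccnd1, cyclin D1, was 157.4 against 80.3 in WT and 296.4 in mock, and was not called.

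Direct comparison with WT called 1974 genes higher (17.6%) and 585 lower (5.23%) after miR-294, and 750 (10.4%) and 307 (4.24%) of the genes counted in at least 50% of cells. More genes were called higher than lower, and many of them were sparse. The call is unequal between directions, since it leaves out 1 of 16 WT cells for lower genes but 1 of 54 miR-294-transfected cells for higher genes. Where the highest cell was not left out, 1693 genes were lower, and the share of higher genes among the calls was 59.9% instead of 77.1%. The 1974 higher genes were counted in a median of 25% of WT cells and 44.4% of miR-294-transfected cells, and 244 had no count in any WT cell. The 16 WT cells held 24459381 counts in all, compared with 97420806 in the miR-294-transfected cells. In 119 of the 1974 genes, and in 100 of the 585, the mock level was within 1.5-fold of WT.

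Of the higher genes counted in at least 75% of miR-294-transfected cells, the 10 with the largest difference were high in mock cells too. Their high share of miR-294-transfected cells with a count was set in advance by this rule. Syne2 encodes nesprin-2, which ties the nucleus to the actin skeleton. It was counted in 5 of 16 WT cells and 50 of 54 miR-294-transfected cells. Its level ran from 0 to 13.6 (median 0) in WT, from 0 to 481.8 (median 65.5) after miR-294 and from 0 to 736.1 (median 140) in mock cells. With 42 of 54 miR-294-transfected cells above the highest WT cell, the groups overlapped little, and the summed counts were 30 in WT (exact Poisson interval 20.2 to 42.8) and 9977 after miR-294, a log2 difference of 6.28 (counting interval 5.77 to 6.85).

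Anxa2, a calcium-dependent membrane-binding protein linked to actin, ran from 0 to 179.0 (median 13.9) in WT, from 0 to 2458 (median 482) after miR-294 and from 0 to 2738 (median 905) in mock cells, and 44 of 54 miR-294-transfected cells were above the highest WT cell. The group levels were 33.7, 628.4 and 1029, and the log2 difference of miR-294-transfected from WT cells was 4.22 (counting interval 4.12 to 4.32). The other genes of the 10 were Dpp4 (a cell surface peptidase), Cd3d (a T cell receptor chain), Myof (myoferlin), Vps11 (endosomal sorting), Plxnb2 (a semaphorin receptor), Rbm38 (an RNA-binding protein), Sfn (14-3-3 sigma) and Tubb2b (a tubulin), with log2 differences from 3.99 to 6.85. For Dpp4 the value was 5.67 where each cell weighed the same. Of the 10, Rbm38 and Tubb2b had a higher level after miR-294 than in mock cells (35.5 and 42.9 against 19.8 and 16.96), and the other 8 a lower one.

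Of the lower genes counted in at least 75% of WT cells, the largest differences were in genes with a low level in mock cells too. Their high share of WT cells with a count was set in advance by this rule. Bex4, an X-linked gene of the brain-expressed family, was counted in all 16 WT cells, with a level from 37.9 to 772.6 (median 318), and ran from 0 to 183.8 (median 38.8) after miR-294. No miR-294-transfected cell reached the WT median, and 27 of 54 were below the lowest WT cell. The group level was 344.5 in WT, 41.1 after miR-294 and 24.0 in mock, a log2 difference of -3.07 (counting interval -3.12 to -3.01). Fmr1nb, a gene next to Fmr1 that is known for expression in testis, was counted in 13 of 16 WT cells, 2 of 54 miR-294-transfected cells and 4 of 60 mock cells, with levels of 53.5, 2.33 and 4.26. Mex3c, an RNA-binding ubiquitin ligase, stood at 165.9, 5.86 and 29.8, and Slfn9, of the Schlafen family, at 39.1, 1.71 and 3.397. The remaining genes of the 10 were Capn12, Pla2g1b, Ptcra, Taok3, Cpne1 and Lin28a, with log2 differences from -4.47 to -2.97.

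**Figure D4:**
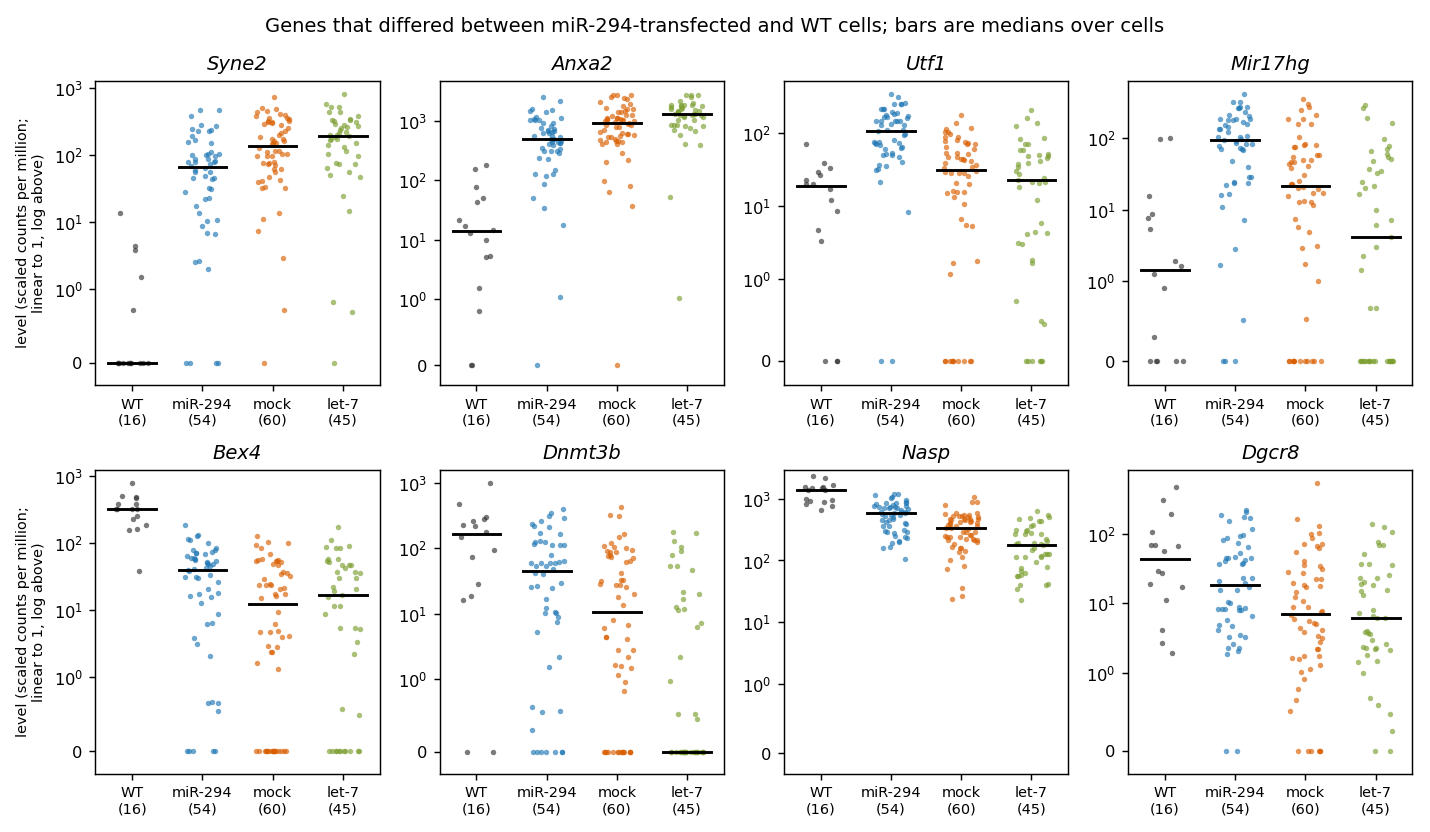
Level of 8 genes in each cell of the 4 groups (number of cells in parentheses), in scaled CPM on an axis that is linear up to 1 and logarithmic above; bars are medians over cells. Syne2 and Anxa2 were far above WT in all 3 Dgcr8-/- groups, and Utf1 and Mir17hg were highest after miR-294. Bex4, Dnmt3b and Nasp were lower than in WT. The group level of Dgcr8 was also lower, but the gene was not called after miR-294.

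Some genes differed from WT after miR-294 although mock cells did not. Of the genes called higher whose mock level was within 1.5-fold of WT, the 4 with the largest difference under the 75% rule were Ptp4a3, a phosphatase (3.52 in WT, 17.6 after miR-294 and 3.84 in mock), Lzts1, a leucine zipper protein (2.54, 11.3 and 2.76), Surf2 (13.04, 56.5 and 15.8) and Tsr3, a ribosomal RNA modification enzyme (9.16, 38.6 and 9.29). The rule asked for a count in at least 75% of miR-294-transfected cells, so the share there was set in advance. Of 16 WT cells, 5 had a count of Ptp4a3, 14 of Lzts1, 8 of Surf2 and 13 of Tsr3. For Ptp4a3 the log2 difference was 2.32, and 5.77 without the WT cell whose runs disagreed. The WT level of Ptp4a3, and with it the closeness of mock to WT, therefore rested on that cell.

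Of the called lower genes of this kind, Cgn, cingulin of tight junctions, stood at 90.7 in WT, 20.5 after miR-294 and 62.8 in mock. Vcl, vinculin, which links adhesion sites to actin, stood at 69.3, 15.6 and 53.03. Fzd10, a Wnt receptor, stood at 14.6, 3.61 and 12.6, and E030024N20Rik at 7.07, 1.57 and 5.50. These 4 were picked for the largest differences among genes counted in most WT cells. A lower median over miR-294-transfected cells than over WT cells was therefore in large part set in advance by this rule. It was found in all 4, for example 1.41 against 11.7 for Vcl, and the ranges overlapped.

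Primary transcripts of miRNAs are cut by DROSHA and DGCR8, and 8 of 13 listed host transcripts in the files were tested. After miR-294, 3 were called higher than WT and 0 lower, against 4 and 0 in mock cells (17.6% and 20.7% of all genes were higher). Mir17hg (chr14:115042879-115046727), the host of the miR-17 cluster, ran from 0 to 99.1 (median 1.45) in WT, from 0 to 405.3 (median 93.6) after miR-294 and from 0 to 349.6 (median 21.5) in mock cells. With 50 of 54 miR-294-transfected cells above the WT median, its group level was 110.7 against 18.6 in WT and 54.5 in mock. The log2 difference from WT was 2.57 (counting interval 2.44 to 2.71), and 3.79 without the WT cell whose runs disagreed. Mir22hg stood at 0.78 in WT, 16.8 after miR-294 and 10.7 in mock, and Mirg, with 3 counts in all in WT, at 0.12, 2.87 and 9.27, a log2 difference of 4.55 after miR-294 (counting interval 2.99 to 6.84). Mcm7, which carries the miR-106b cluster in an intron, was 581 in WT, 620.0 after miR-294 and 450.5 in mock, and Dleu2, the host of miR-15a and miR-16, was 140.4, 160.3 and 285. The other hosts lay below WT after miR-294 and were not called: Meg3 stood at 58.996, 28.9 and 109.8, Rian at 154.5, 98.3 and 381.5, and Smc4 at 206.7, 162.6 and 159.9.

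In the miRNA machinery, Lin28a was the only 1 of 16 tested genes called after miR-294, and it was lower. Of the 16, 7 were within 1.5-fold of WT, near the 42.03% of all genes. Dicer1, which cuts miRNA precursors, stood at 30.1 in WT, 62.9 after miR-294 and 28.5 in mock cells, and Drosha at 179.1, 91.7 and 111.1. Dicer1 was 2-fold above WT with all cells but not without its highest cell, and Drosha was less than 2-fold below.

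**Figure D5:**
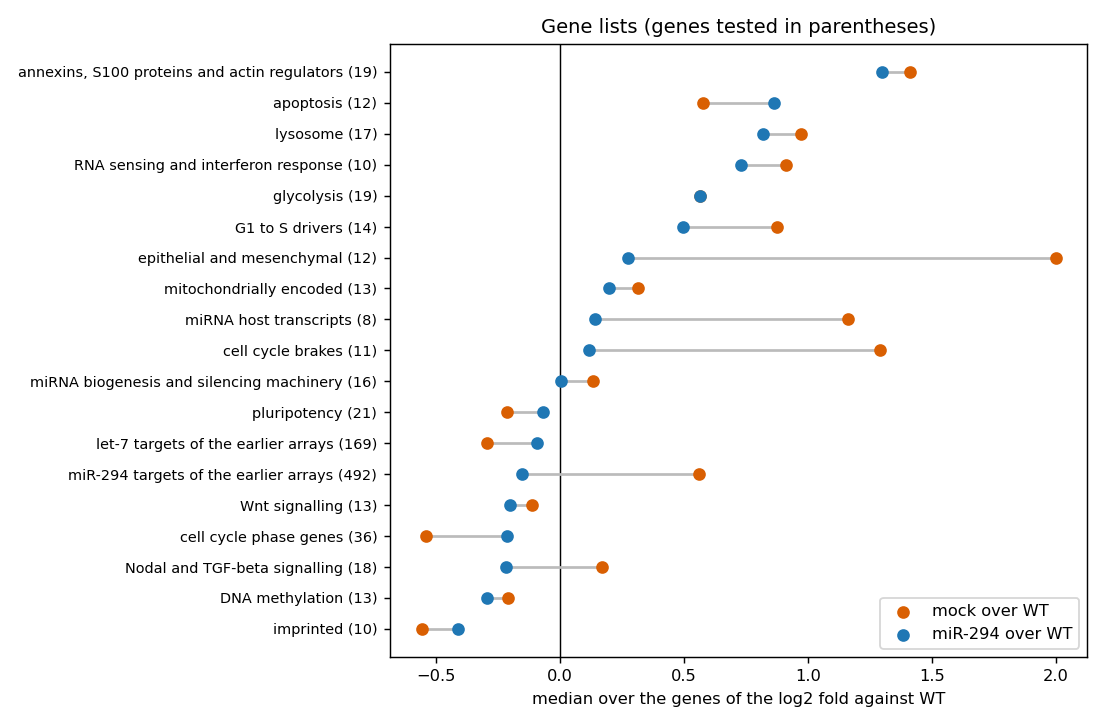
Median log2 difference from WT of mock cells and of miR-294-transfected cells for each gene list with at least 8 tested genes (number in parentheses). Epithelial and mesenchymal genes, cell cycle brakes, miRNA host transcripts and miR-294 targets lie nearer to 0 after miR-294 than in mock cells. Apoptosis (0.865 against 0.577 in mock) and DNA methylation (-0.294 against -0.208) lie further from 0. So do Wnt signalling (-0.202 against -0.114) and Nodal and TGF-beta signalling (-0.218 against 0.168). The medians of annexins and their relatives (1.30 and 1.41, both the value of Anxa7) and of lysosomal genes (0.82 and 0.97) are close in both groups.

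In a list of annexin genes and their relatives, as many genes were called after miR-294 as in mock cells. Lysosomal genes differed less from WT after miR-294. Of 19 annexins, S100 proteins and actin regulators, 11 were higher and 1 lower than WT after miR-294, and 11 and 1 in mock cells, where Twf1 was called in place of Pfn1 (17.6% and 20.7% of all genes were higher). The median log2 difference was 1.30 after miR-294 and 1.41 in mock, which are both the values of Anxa7. Every annexin in the list lay nearer to WT after miR-294 than in mock cells. For Anxa1 the level was 27.9 against 91.8, and for Anxa4 100.5 against 194.9. Cfl1, Pfn1 and Tmsb10 lay further from WT after miR-294. Anxa3 stood at 9.57 in WT, 69.5 after miR-294 and 187.5 in mock, and Pfn1, profilin, at 144.1, 402.1 and 288.5. Anxa6 was the lower one, at 175.5, 28.4 and 19.9. Of 17 lysosomal genes, 6 were higher after miR-294 and 8 in mock, with medians of 0.82 and 0.97 on the log2 scale, beside 0.01 and 0.02 over all genes. Their summed level was 1563 in WT, 2442 after miR-294 and 3756 in mock. The proteases Ctsa, Ctsb and Ctsd stood at 309.0, 332.9 and 249.3 after miR-294 against 102.7, 124.4 and 95.3 in WT, while the listed targets Lamp2 and Scpep1 were not called, the latter at 150.7 against 242.2.

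Of 21 pluripotency genes, 4 were called higher and 0 lower, near the 17.6% of all genes called higher, and 14 were within 1.5-fold of WT, beside 42.03% of all genes. Nanog stood at 616.8 in WT, 549.6 after miR-294 and 409.5 in mock, and Sall4 at 935.6, 852.3 and 654.2. Tbx3, which was called lower in mock cells (78.1), stood at 159.3 after miR-294 against 178.6 in WT, and Klf4 at 125.5, 117.8 and 64.2 in WT, miR-294-transfected and mock cells. The 4 called higher were Pou5f1, which encodes Oct4, Klf2, Prdm14 and Utf1. Utf1, a chromatin factor of pluripotent cells, ran from 0 to 71.1 (median 18.6) in WT and from 0 to 337.7 (median 107.5) after miR-294, with 35 of 54 cells above the highest WT cell, and its group level was 19.8, 117.1 and 42.1. Pou5f1 stood at 93.7, 233.5 and 208.1.

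Of 13 genes of DNA methylation, 2 were higher and 3 lower after miR-294, beside 17.6% and 5.23% of all genes. The lower ones included both de novo methyltransferases. Dnmt3b ran from 0 to 983.2 (median 162) in WT and from 0 to 399.2 (median 45.2) after miR-294, and its group level was 235.9, 74.3 and 44.9. Dnmt3a stood at 77.5, 22.04 and 34.7. Dnmt1, the maintenance enzyme, stood at 134.0, 125.8 and 136.1, and Uhrf1, which recruits it, at 789.1, 643.5 and 401.2.

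Glycolysis genes had a median log2 difference from WT of 0.56 after miR-294 and in mock cells, and of 0.04 after let-7. Their summed level was 19325 in WT, 30181 after miR-294, 24321 in mock and 17091 after let-7. Of 19 genes, 4 were called higher after miR-294 and 4 higher and 1 lower in mock, near the shares over all genes (17.6% and 20.7% higher). Aldoa, an aldolase, had a level of 3977 after miR-294, above both WT (1739) and mock (2651), and Pfkl, a phosphofructokinase, stood at 20.7 in WT, 158.1 after miR-294 and 88.7 in mock. The 13 genes encoded by mitochondria had 0 calls after miR-294, and 12 were within 1.5-fold of WT.

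In the other lists, the counts were small, and the shares over all genes were 17.6% higher and 5.23% lower after miR-294 and 20.7% and 6.51% in mock. Of 12 epithelial and mesenchymal genes, 4 were higher after miR-294 and 6 in mock, with medians of 0.27 and 2.00. The mesenchymal filament Vim stood at 119.8 in WT, 203.3 after miR-294 and 414.1 in mock, and the keratin Krt8 at 3.64, 49.7 and 126.5. Of 10 genes of RNA sensing and interferon response, 4 were higher and 1 lower in both, among them Oas1a (9.49, 56.9 and 120.4), whose log2 difference of 2.58 after miR-294 was 3.99 with first runs alone. Of 12 apoptosis genes, 4 were higher and 1 lower after miR-294. Casp2, a caspase and listed target, stood at 3.76, 13.5 and 58.7, and Ei24, the lower one, at 59.5, 19.4 and 50.9. Of 18 genes of Nodal and TGF-beta signalling, 2 were higher after miR-294 (Smad3 and Tgfbr1, the latter at 1.53 on the log2 scale, or 2.24 without the WT cell whose runs disagreed) and 6 higher and 2 lower in mock. Of 13 Wnt genes, 3 were higher, and of 10 imprinted genes 1 was higher and 2 lower. Of 5 tested early differentiation genes, 3 were higher and 1 lower, the latter being Eomes, counted in 13 of 16 WT cells and 21 of 54 miR-294-transfected cells (57.5, 9.78 and 10.1). The 1 fibroblast gene tested, Tagln, was not called. Of 169 listed let-7 targets, 17 were higher and 9 lower, with a median of -0.09.

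By chromosome, genes counted in at least 50% of cells had median log2 differences from WT between -0.29 (chromosome 1) and 0.09 (chromosome 7) for the nuclear chromosomes after miR-294, and between -0.26 and -0.02 in mock cells. The share of genes called higher was highest on chromosome 9 (14.7%) and chromosome 7 (14.2%). Protein-coding genes made up 94.1% of the genes higher after miR-294, 92.04% of those lower and 93.3% of all tested genes.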

How the data were processed

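Single-cell RNA-seq libraries of mouse ESCs were analysed in 4 groups taken from the genotype labels. The authors assigned reads to Gencode M4 genes with RSEM 1.2.19 and deposited, for each run, an expected count per gene, not normalized, beside an FPKM that was not used here. Cells with few reads, low diversity or no loss of targets had already been removed.

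For each cell, expected counts were added over its runs and then rounded. Genes with a mean of at least 5 counts over all cells were kept, 11186 of 42493. Gene symbols matched 11122 of them, and positions are those of Gencode M21 (GRCm38). Counts were summed per group and scaled by median-of-ratios size factors of the 4 sums; a cell's level is its CPM multiplied by the factor of its group (0.9326 for miR-294, 0.9 for mock and 0.8443 for let-7, with WT at 1). Reads carry no molecular identifiers. The methods give standard parameters for RSEM and name no strand setting. A sum of 0 was set at 3 counts for calls. The smallest total of a cell was 513521 counts.

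Each condition is 1 sample, so no test between conditions, p-value or standard error was computed. The call by fold was also run on simulated cells to check the code, and no result given here rests on that. Genes to name followed a rule: the marker genes and Dgcr8; among genes counted in at least 75% of the cells of the higher group, those with the largest differences (10 called per direction, 8 higher and 6 lower in mock but at the WT level after miR-294, and 4 per direction with mock near WT); up to 4 per list and of the targets; and all host transcripts. List members named beyond these, and targets given as examples, were chosen after their values were seen. The members, gene lists and calls were chosen with earlier results of these data known. The lists of targets come from earlier arrays, as the study gives them. Alternatives were another scaling, filter, fold, weighting of cells, set of runs and set of cells. Python 3.11.15, numpy 2.4.6, pandas 2.3.3 and scipy 1.17.1 were used.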

Additional observations from a re-analysis of the deposited data

How the results depend on the processing

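Of 132 values of the counts of genes recomputed under 11 alternatives, 105 stayed within 1.5 times the reported count. Without a filter on low counts, the miR-294-transfected cells had 351 genes at the WT level of those higher in mock cells and 671 still lower of those lower in mock cells, and the let-7-transfected cells had 240 and 139 at the WT level. Where the highest cell was not left out, 1693 genes were lower after miR-294 and 1821 in mock cells, 112 miR-294 targets were lower, 349 (higher in mock) and 415 (lower in mock) were at the WT level after miR-294, 947 were still lower, and 213 and 313 were at the WT level after let-7; the share of higher genes among the calls fell to 59.9% from 77.1% for miR-294, and to 60.97% from 76.1% for mock cells. With a fold of 1.5, 1290 genes were lower after miR-294 and 1602 in mock cells, 244 of the latter were at the WT level and 1066 still lower, and 93 targets were lower. Among genes counted in at least 50% of cells, an alternative chosen after seeing the data, the numbers were 750 higher and 307 lower after miR-294, 899 and 463 in mock cells, 125 at the WT level and 605 still higher, 212 still lower, 70 and 40 at the WT level after let-7, and 36 targets higher. These settings change the genes tested or the call by construction, and no other cause was tested. With totals alone as the scale, the median log2 difference over all genes moved from 0.01 to 0.11 for miR-294 and from 0.02 to 0.18 for mock cells. Leaving out the WT cell whose runs disagreed, also chosen after seeing the data, moved no count by over 1.5 times.

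No paired analysis was possible because the replicate numbers in the labels name sequencing runs of a cell, and no test between conditions was made. The WT side, with 16 cells, held the fewest counts in all, and 244 of the genes called higher had no count there.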
